A study of Canis lupus familiaris with 2 samples.

Results

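The regions described here are 3 long segments of the dog genome in which a bisulfite library from TGF-beta-treated MDCK cells was shallow for its own depth when set against the library from untreated cells. They lie on chromosome 3 from 1 to 19000000 (19.0 Mb), on chromosome 6 from 51000001 to 77573627 (26.6 Mb, up to the last listed cytosine) and on chromosome 7 from 15000001 to 36000000 (21.0 Mb), in the canFam3 build. Cut into windows of 100 kb they gave 190, 266 and 210 windows, 666 of the 22028 windows of chromosomes 1 to 38. MDCK is an epithelial cell line from dog kidney. One culture was untreated and the other received TGF-beta at 5 ng/ml; both were kept for 30 days, and the labels call the first epithelial and the second mesenchymal. Each group has 1 library, so the differences below have no replicate check and carry no p-value. The segments were chosen from the ratio of the depths of these same libraries, so the depth values are a description of that choice; what they add is which library departed, where, and by how much.

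In whole-genome bisulfite sequencing, unmethylated cytosine is read as thymine and methylated cytosine as cytosine, so each read over a CpG adds a methylated or an unmethylated call. The number of calls per CpG over a long stretch depends on the amount of template DNA as well as on base composition, mapping and amplification, and a change in every cell cannot be told apart from a larger change in some of the cells. Methylation level is the share of methylated calls and does not itself depend on how many molecules were read. Cultured cells often carry long, CpG-poor stretches of reduced methylation, called partially methylated domains, that alternate with stretches where nearly all CpGs outside islands are methylated. The growth factor TGF-beta can turn epithelial cells such as MDCK towards a mesenchymal state. No gene annotation or sequence of canFam3 was used, so genes and bases in the segments are not analysed here.

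The control library held 656122583 calls and the TGF-beta library 1019766599. On chromosomes 1 to 38, 100 kb windows had a median of 25.2 calls per listed CpG site in the control (quartiles 22.2 and 28.3) and 35.5 in the TGF-beta library (28.3 and 43.1). Relative depth is the calls per listed site of a window divided by the median of windows of like CpG density in the same library, so 1 is the typical window and log2 relative depth is 0 there. Windows at or below -0.35 on that scale are called low, and windows at or above 0.35 high.

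The deeper library lost its lead in all 3 segments. On chromosome 3 the control had a median of 29.4 calls per site inside the segment and 27.2 in the rest of the chromosome, whereas the TGF-beta library had 28.4 inside and 38.1 outside. On chromosome 6 the control had 21.6 inside and 24.4 outside, and the TGF-beta library 19.9 inside and 34.1 outside. On chromosome 7 the control had 22.3 inside and 21.7 outside, and the TGF-beta library 21.2 inside and 29.7 outside. Inside each segment the libraries thus had nearly the same number of calls per site, although the TGF-beta library was the deeper one over the rest of each chromosome.

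**Figure D1:**
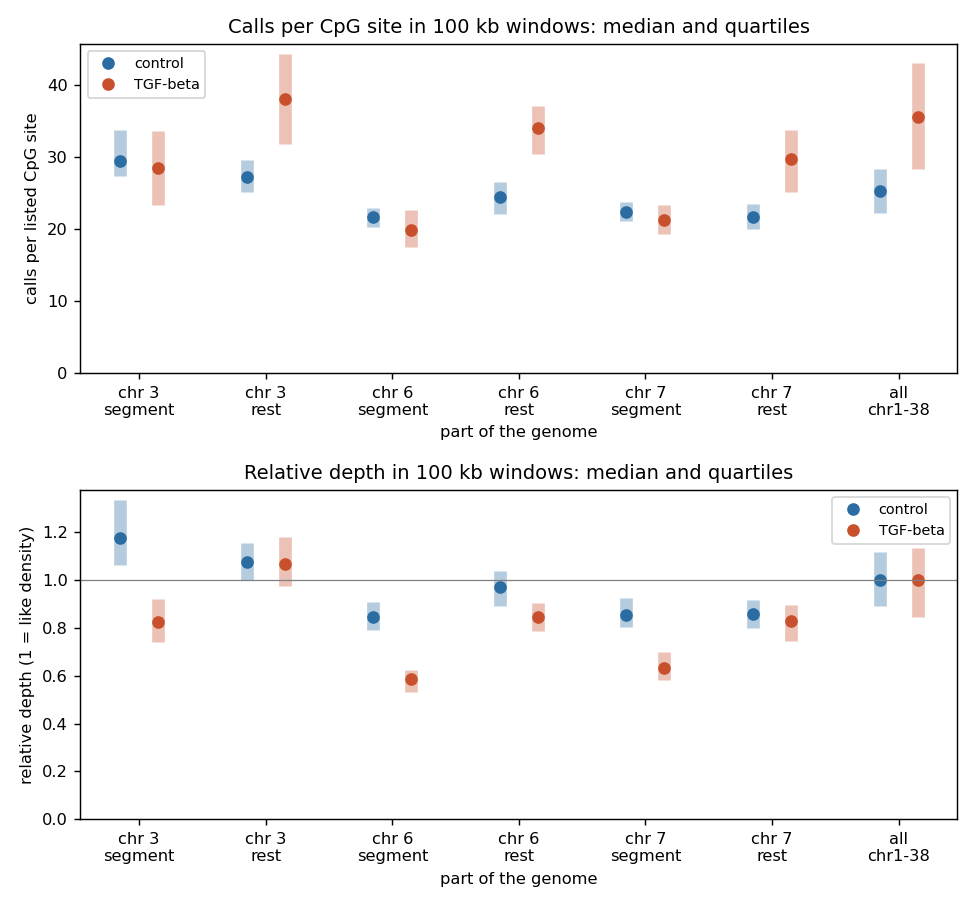
Calls per listed CpG site (top) and relative depth (bottom) of 100 kb windows, by part of the genome. Points are medians over windows and bars span the quartiles, for the control (blue) and the TGF-beta library (orange); inside each segment the TGF-beta median is at or below 28.4 calls, and its relative depth is 0.823, 0.587 and 0.633 on chromosomes 3, 6 and 7.

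The libraries departed differently in each segment. On chromosome 7 the TGF-beta library alone departed from the rest of its chromosome. Its median relative depth was 0.633 inside (quartiles 0.582 and 0.699; log2 -0.66) against 0.827 outside (log2 -0.27), while the control was at 0.855 inside (log2 -0.23) and 0.858 outside (log2 -0.22). Both libraries were therefore under the typical window over the whole of chromosome 7, and the segment added a difference of -0.39 in the TGF-beta library and of -0.0049 in the control, on the log2 scale. In the TGF-beta library 200 of 210 windows were low, against 16.4% of all windows of chromosomes 1 to 38. In the rest of chromosome 7, 36% were low in that library. In the control 38 were low, or 18.1%, against 8.11% of all windows and 21% of those in the rest of the chromosome. The rule used this contrast, so nothing further is read from these counts.

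On chromosome 6 both libraries were lower inside the segment, the TGF-beta library by more. Its median relative depth was 0.587 inside (quartiles 0.531 and 0.622; log2 -0.77) and 0.846 outside (log2 -0.24). The control had 0.846 inside (quartiles 0.791 and 0.906; log2 -0.24) and 0.971 outside (log2 -0.04). Segment minus rest was -0.53 in the TGF-beta library and -0.20 in the control on the log2 scale. In the TGF-beta library 265 of 266 windows were low (99.6%), where 16.4% of all windows and 23.9% of those in the rest of the chromosome were. Of the 265, 135 lay below the lowest of the 510 windows in the rest of the chromosome. In the control 61 were low (22.9%), where 8.11% of all windows and 4.31% of those in the rest were. Neither library had a high window in the segment. The TGF-beta median of this segment was lower than that of each of the 38 autosomes taken outside the segments, whose lowest was chromosome 25 at -0.73.

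On chromosome 3 the libraries departed in opposite directions. The control was above the typical window, at a median relative depth of 1.17 (quartiles 1.06 and 1.33; log2 0.23), against 1.07 in the rest of the chromosome (log2 0.10). The TGF-beta library was below it, at 0.823 (quartiles 0.739 and 0.922; log2 -0.28), against 1.07 in the rest (log2 0.09). High windows in the control numbered 60 of 190, where 6.66% of all windows were high. Low windows in the control numbered 1, where 8.11% of all windows were low. In the TGF-beta library 76 windows were low (40%), where 16.4% of all windows were. High windows in that library numbered 6, where 8.97% of all windows were high. The control median of the segment exceeded that of 36 of the 38 autosomes taken outside the segments, while the TGF-beta median lay below that of 33. Measured from the typical window, then, both libraries contributed to the ratio between them, a median of -0.50. Measured from the rest of the chromosome, the TGF-beta library contributed more. Segment minus rest was -0.37 for that library but 0.13 for the control, on the log2 scale.

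As a ratio of relative depths, TGF-beta over control, the 3 segments had medians of -0.50, -0.54 and -0.45 on the log2 scale for chromosomes 3, 6 and 7. The rest of the same chromosomes had medians of -0.0027, -0.20 and -0.05. In the segments the ratio was below 0 in 190 of 190, 266 of 266 and 209 of 210 windows. In the rest of the same chromosomes it was below 0 in 370 of 729, 453 of 510 and 385 of 600. Over chromosomes 1 to 38 that held for 11689 of 22028 windows. The ratio was at or below -0.35 in 163, 237 and 148 windows of the segments, where 8.76% of all windows of chromosomes 1 to 38 were.

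**Figure D2:**
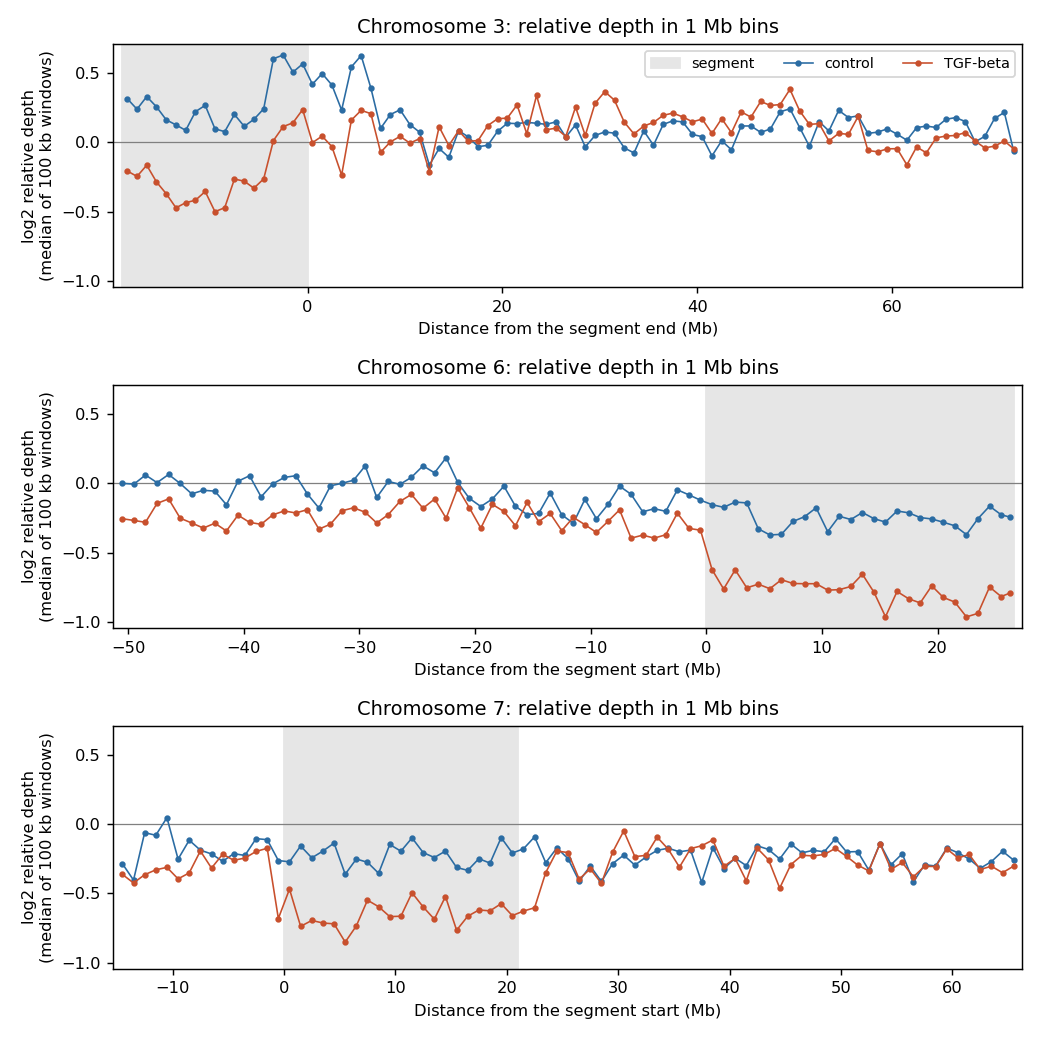
Log2 relative depth along chromosomes 3, 6 and 7 in bins of 1 Mb (medians of up to 10 windows), for the control (blue) and the TGF-beta library (orange), with distance from the segment's inner edge on the x axis and the segment in grey. The TGF-beta line lies below the control line in each bin inside the segments (19, 27 and 21 bins), and on chromosome 3 both lines rise in the last 4 Mb of the segment.

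In bins of 1 Mb the TGF-beta library lay below the control in all 19 bins of the chromosome 3 segment, all 27 of chromosome 6 and all 21 of chromosome 7. In the rest of these chromosomes it did so in 37 of 73, 49 of 51 and 46 of 60 bins. On chromosome 6 the TGF-beta library ranged from -0.96 to -0.62 inside the segment and from -0.40 to -0.03 outside, with no overlap, whereas the control ranged from -0.37 to -0.14 inside and from -0.29 to 0.18 outside and overlapped. On chromosome 7 the TGF-beta bins ranged from -0.85 to -0.47 inside and from -0.68 to -0.05 outside, and the 3 bins outside that overlapped were those next to the segment, given below. On chromosome 3 they ranged from -0.50 to 0.24 inside and from -0.24 to 0.38 outside, and 13 of the 19 lay below the lowest bin outside.

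The chromosome 3 segment was not of one piece. From 1 to 15000000 the control was at a median log2 relative depth of 0.17 and the TGF-beta library at -0.33, over 150 windows. From 15000001 to 19000000 both were higher, at 0.56 and 0.14 over 40 windows, or 38.4 and 33.6 calls per site. The ratio between the libraries hardly moved, at -0.52 and -0.44. Of the 60 high control windows of the segment, 36 lay in the shorter stretch, and of the 76 low TGF-beta windows 73 lay in the longer one. This split was made after the profile was seen. The TGF-beta median was thus under the typical depth, though not past -0.35, up to 15000000 and above it beyond, so at the far end only the ratio was low.

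The edges of the rule did not all sit at the steps in depth. Just inside the edge on chromosome 6, the window from 51000001 to 51100000 was at 0.05 in the control against -0.36 with TGF-beta, and the one just outside it at 0.17 and -0.13. Over 10 windows on each side, the TGF-beta library went from -0.34 outside to -0.62 inside, and the control from -0.12 to -0.15. No bin of 1 Mb next to that edge had a ratio at or below -0.35, the nearest being at -0.24.

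On chromosome 7 the depth was already low before the start of the segment. The window just inside, from 15000001, was at -0.24 in the control against -0.36 with TGF-beta, and the one just outside at -0.40 and -0.74. The bin from 14000001 to 15000000 was at -0.26 in the control against -0.68 with TGF-beta. The next bin out had a ratio of -0.13. At the other end the windows on each side of 36000000 were at -0.20 and -0.38 in the control against at -0.95 with TGF-beta on both sides. The 20 windows from 36000001 to 38000000 stayed low in the TGF-beta library, at -0.60 against -0.13 in the control, and the bin after them had a ratio of -0.06. Between 14000001 and 38000000 the ratio was not below -0.35 throughout, since 4 bins inside the segment did not reach it. They were 15000001 to 16000000 at -0.265, 22000001 to 23000000 at -0.268, 23000001 to 24000000 at -0.249 and 32000001 to 33000000 at -0.346.

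On chromosome 3 the ratio also went on past the edge. The last window inside was at 0.69 in the control against 0.32 with TGF-beta, and the first outside at 0.32 and -0.13. The 60 windows from 19000001 to 25000000 had medians of 0.48 in the control against 0.08 with TGF-beta, a ratio of -0.43, and the next bin was at -0.17. From 30000001 to the end of the chromosome the medians were 0.09 and 0.10. By the ratio, all 19 bins of 1 Mb on chromosome 3, all 27 on chromosome 6 and 17 of 21 on chromosome 7 were at or below -0.35, 63 of 67 in all, against 10 of the other 184 bins of these 3 chromosomes and 55 of all 2101 autosomal bins outside the segments and chromosome 25. On chromosome 25 it was 46 of 52, so such a ratio was not limited to the segments.

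The TGF-beta library lay below the control at each CpG density and on each strand, but the size of the gap varied with density. In windows of fewer than 5.9 CpG sites per kb the log2 ratio was -0.48, -0.49 and -0.41 on chromosomes 3, 6 and 7, and in windows of 12.7 or more it was -0.54, -0.66 and -0.59, the last over 11 windows. In the TGF-beta library the log2 relative depth of those windows was -0.28 and -0.28 on chromosome 3, -0.66 and -0.83 on chromosome 6, and -0.50 and -0.84 on chromosome 7. Read from the first cytosine of each CpG alone, the TGF-beta medians were -0.20, -0.71 and -0.63, and from the second alone -0.23, -0.73 and -0.62. Of the CpG sites of the segments listed in either library, the TGF-beta library listed 97.1%, 96.8% and 97.5%, against 98.5% over chromosomes 1 to 38. The control listed 99.4%, 99.1% and 99.2%, against 99.3%.

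Single windows spread widely around these medians. The lowest in each library on chromosome 3 was the same, from 100001 to 200000, at 0.271 of the typical depth in the control against 0.265 with TGF-beta, so that window was low in both. The highest in the control was at 16200001 to 16300000, at 1.86 against 1.31 in the TGF-beta library, and the highest in the TGF-beta library at 15800001 to 15900000, at 1.35 against 1.63. On chromosome 6 the lowest control window, 59300001 to 59400000, was at 0.602 and 0.428, and the lowest TGF-beta window, 65700001 to 65800000, at 0.737 and 0.324. The highest were 51800001 to 51900000, at 1.10 and 0.663, and 63600001 to 63700000, at 0.996 and 0.793. On chromosome 7 the lowest were 32700001 to 32800000, at 0.638 and 0.519, and 18200001 to 18300000, at 0.811 and 0.488. The highest there were 26800001 to 26900000, at 1.09 and 0.792, and 22000001 to 22100000, at 1.02 and 0.844. Even the highest TGF-beta window of chromosomes 6 and 7 stayed under the typical depth.

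Methylation levels were next compared between the segments and the rest of their chromosomes, over sites covered by 5 or more calls in each library. All calls of the chromosome 3 segment together were methylated in 69.7% (exact 95% binomial interval 69.6 to 69.7) in the control against 71.9% (71.8 to 71.9) with TGF-beta, against 63.8% and 65.6% in the rest of the chromosome. On chromosome 6 the segment was at 62.0% (62.0 to 62.1) and 63.2% (63.2 to 63.3), against 65.7% and 67.0%. On chromosome 7 it was at 66.2% (66.1 to 66.2) and 65.5% (65.4 to 65.5), against 66.1% and 67.2%. These intervals cover counting error only. The mean of site levels, which gives each site equal weight, was 68.4% and 69.1% in the segment of chromosome 3, 61.7% and 61.2% in that of chromosome 6, and 64.3% and 64.8% in that of chromosome 7. On chromosomes 6 and 7 the libraries thus differed in opposite directions by the 2 measures. In the rest of the chromosomes the mean of site levels was 62.4% and 62.7%, 64.0% and 64.4%, and 65.4% and 65.7%. By that mean the segments of chromosomes 6 and 7 were below the rest in both libraries.

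By the median 100 kb window, the segments of chromosomes 3 and 7 had a higher level than the rest and that of chromosome 6 a lower one. The median window was at 64.2% in the control (quartiles 42.1 and 83.2) and 65.1% in the TGF-beta library on chromosome 3, against 57.2% and 59.0% in the rest. It was at 54.4% (41.8 and 76.6) and 57.3% on chromosome 6, against 63.7% and 62.8%, and at 68.3% (49.2 and 80.3) and 66.1% on chromosome 7, against 62.7% and 61.6%. The spread between windows of a segment was much larger than any of these differences. CpG density differed too, with medians of 6.82, 7.65 and 7.11 sites per kb in the segments and 7.86, 11.7 and 8.59 in the rest. Set against windows of like density, the median window was higher by 5.81 points in the control against 6.56 with TGF-beta on chromosome 3, and by 8.18 and 7.20 on chromosome 7. On chromosome 6 it was at -1.17 and -2.51 points, above the -3.50 and -3.82 of the rest of that chromosome, so against like density that segment was not the lower one.

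**Figure D3:**
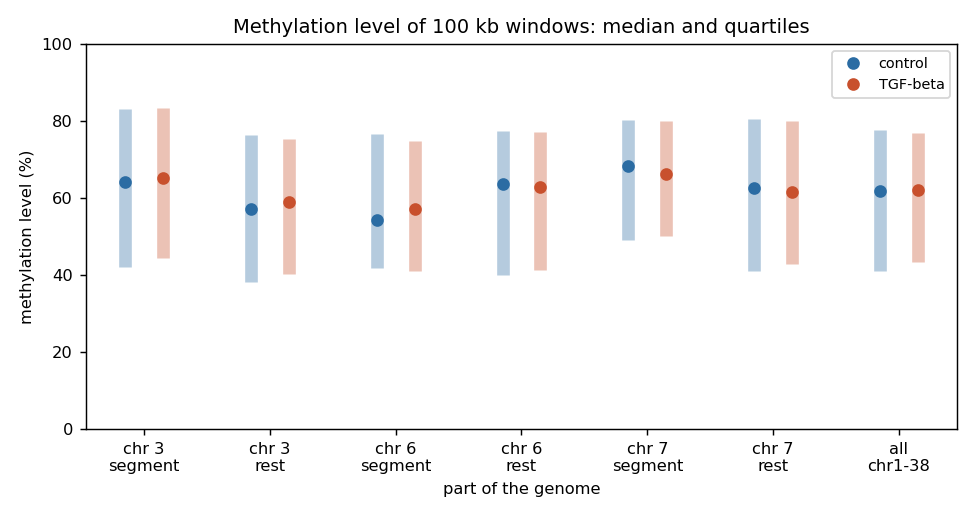
Methylation level of 100 kb windows, in percent of calls, by part of the genome, for the control (blue) and the TGF-beta library (orange). Points are medians over windows and bars span the quartiles; the libraries' bars overlap almost fully in each part, and the segment of chromosome 6 has the lowest medians of the 3 segments (54.4% and 57.3%).

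Windows of low level, which partially methylated domains would give, had a share near that of the genome in the segment of chromosome 3, a larger one in that of chromosome 6 and a smaller one in that of chromosome 7. Windows under 50% in the control numbered 67 of 190 on chromosome 3, 110 of 266 on chromosome 6 and 56 of 210 on chromosome 7, or 35.3%, 41.4% and 26.7%, against 37.0% over chromosomes 1 to 38. In the TGF-beta library they numbered 67, 109 and 52, or 35.3%, 41.0% and 24.8%, against 34.1% over chromosomes 1 to 38. In the rest of chromosomes 3, 6 and 7 the control had 42.4%, 37.3% and 38.7% under 50%, and the TGF-beta library 40.9%, 36.3% and 35.9%. Against its own chromosome, the segment of chromosome 3 thus had the smaller share. These shares were not set against windows of like density. Windows at 75% or more numbered 71, 72 and 77 in the control, or 37.4%, 27.1% and 36.7%, against 30.1% over chromosomes 1 to 38. In the TGF-beta library they numbered 72, 66 and 72, or 37.9%, 24.8% and 34.3%, against 28.3%. The counts of both kinds of window were thus close in the libraries.

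The difference between the libraries was small in most windows. The median difference, TGF-beta minus control, was 1.59 points on chromosome 3 (quartiles -0.586 and 3.69), 0.111 on chromosome 6 (-2.43 and 2.27) and 0.306 on chromosome 7 (-2.24 and 2.16). In the rest of the same chromosomes it was 0.766, 0.157 and 0.251, and over chromosomes 1 to 38 it was 0.682. By the mean of site levels it was 0.593, -0.369 and 0.407 points in the segments. For scale, the levels read from each cytosine of the CpG pairs within a library differed by a median of 2.27, 2.42 and 2.92 points in the control and 2.43, 2.75 and 2.93 in the TGF-beta library. Between the libraries, the median size of a window's difference with the sign left aside was 2.50, 2.37 and 2.21 points. That measure used the calls of both cytosines. The strand values rest on fewer calls and on other sites, so they do not show whether the differences exceed counting error.

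Windows that differed by 10 points or more were few. With TGF-beta 7 windows of chromosome 3 were higher and 3 lower, on chromosome 6 there were 10 and 8, and on chromosome 7 there were 10 and 5. Over chromosomes 1 to 38, 2.39% of windows were higher by that much and 1.49% lower. The segments' shares were 3.68%, 3.76% and 4.76% higher and 1.58%, 3.01% and 2.38% lower, and the rest of the same chromosomes had 2.19%, 0.784% and 1.00% higher and 0.960%, 0.392% and 1.17% lower. Windows outside the segments, weighted to each segment's mix of CpG densities, would give 2.78%, 2.55% and 2.84% higher and 1.62%, 1.74% and 1.89% lower. Among the autosomes outside the segments, 5, 5 and 2 of 38 had a larger share of higher windows and 13, 1 and 5 a larger share of lower ones. By summed calls the shares were above the background in both directions on chromosomes 6 and 7, within the range of whole chromosomes. By the mean of site levels the share of higher windows on chromosome 6 was 1.13%, below the 1.43% at like density, and that of lower windows 1.88%, above 0.614%.

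The same shares were counted in windows outside the segments by their depth. Of the 3066 windows outside the segments that were low in the TGF-beta library, 1.47% were higher by 10 points or more and 1.44% lower, against 2.48% and 1.46% of the 18286 that were not. Of the 1381 with a ratio at or below -0.35, 1.45% were higher and 1.52% lower, against 2.40% and 1.45% of the other 19971. The median size of a difference, sign left aside, was 2.37 points in the windows low in the TGF-beta library and 2.01 in the others. Whether depth contributed to the differences inside the segments was not tested.

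The higher windows kept their sign by both measures of level, and most of the lower ones did not. Past 10 points by both measures were 11 of the 27 higher windows and 4 of the 16 lower ones. Each of the 27 higher and 16 lower windows had its sign on both cytosines of the CpG pair. So did 525 of the 526 higher and all 327 lower windows of chromosomes 1 to 38. The windows were picked on the calls of both cytosines together, so this agreement is not a separate check. By the mean of site levels all 7, 10 and 10 higher windows kept their sign, with median differences of 11.9, 8.46 and 9.95 points. Of the lower windows 0 of 3 on chromosome 3, 5 of 8 on chromosome 6 and 0 of 5 on chromosome 7 kept theirs. With the threshold applied to the mean of site levels, 4, 3 and 4 windows were higher, where 1.3% of all windows were, and 0, 5 and 2 were lower, where 0.568% were. On chromosome 6 alone of the 3 did lower windows outnumber higher ones by that measure.

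**Figure D4:**
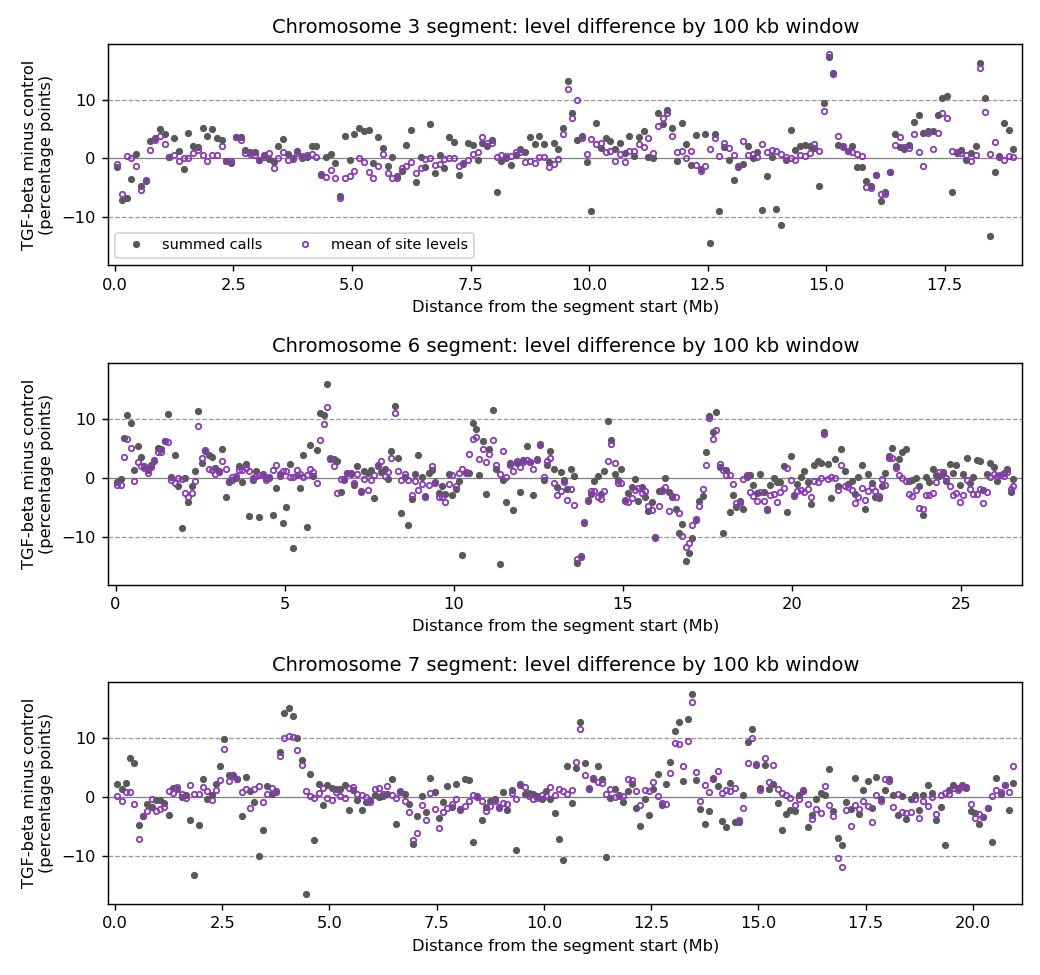
Difference in methylation level, TGF-beta minus control in percentage points, of each 100 kb window of the segments against its distance from the segment start, by summed calls (filled) and by the mean of site levels (open). Dashed lines mark 10 points in each direction; most windows lie between them, and several windows at or below -10 by summed calls have open symbols near 0.

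On chromosome 3, 6 of the 7 higher windows lay in the stretch from 15000001 to 19000000, where both libraries were deep, and 1 lay in the 150 windows before it. The largest gain of level was at 15000001 to 15100000, from 56.9% (56.2 to 57.5, 23175 calls) in the control to 74.2% (73.6 to 74.7, 24679 calls) in the TGF-beta library. With its neighbour it formed a block from 15000001 to 15200000 at 57.0% and 72.7% over 1238 sites, or 56.0% and 71.8% by the mean of site levels. The second largest, 18200001 to 18300000, went from 52.4% to 68.6%. Another pair, 17400001 to 17600000, was at 63.1% and 73.7%. The largest losses that held by both measures were smaller, at -7.19 points at 16100001 to 16200000 (86.9% and 79.7%), -7.12 at 100001 to 200000, the window of lowest depth (39.1% and 32.0%, with 2274 and 2580 calls), and -6.44 at 4700001 to 4800000.

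On chromosome 6 windows past 10 points in either direction lay between 51300001 and 68800000. The largest gain, at 57200001 to 57300000, went from 49.7% (49.0 to 50.4) to 65.6% (65.0 to 66.2) and belonged to a block of 3 windows from 57000001 at 48.2% and 61.0%. The next were 59200001 to 59300000, from 58.1% to 70.2%, and 62100001 to 62200000, from 63.0% to 74.6%. The largest loss with the same sign by both measures, 64600001 to 64700000, was at 47.5% in the control (46.5 to 48.6, 9368 calls) and at 33.1% with TGF-beta (32.1 to 34.1, 8145 calls). The window after it was at 51.6% and 38.2%. A second block of lower level, from 67800001 to 68100000, was at 82.6% (82.2 to 82.9) and 70.3% (69.9 to 70.8) over 1647 sites, and at 79.8% and 69.6% by the mean of site levels.

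The far part of that segment was lower in the TGF-beta library when each site counted equally. From 66000001 to 71000000 the mean of site levels was lower in 40 of 50 windows, by a median of -2.87 points, and from 71000001 to 76000000 in 41 of 50, by -1.85 points. From 76000001 to the end the mean of site levels was lower in 10 of 16 windows, by -1.61 points. By summed calls the medians of these stretches were -2.59, 0.263 and 0.604, so only the first showed it. The first and second stretch had control medians of 45.5% and 42.7% by the mean of site levels. Over chromosomes 1 to 38 the mean of site levels was higher in 12266 of 22018 windows, and in the rest of chromosome 6 in 293 of 510. Windows under 50% were lower by the median outside the segments too, as given below. From 51000001 to 56000000 the mean of site levels was higher in 36 of 50 windows, by a median of 1.14 points. The median size of a window's difference, sign left aside, was 2.13 points by the mean of site levels in the whole segment, above each of the 38 autosomes outside the segments, which ranged up to 1.64. It was 1.20 and 1.43 points in the segments of chromosomes 3 and 7.

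On chromosome 7, 8 of the 10 higher windows lay in 3 blocks. From 18900001 to 19300000 a block of 4 windows was at 53.0% (52.6 to 53.5) in the control against 66.3% (65.8 to 66.8) with TGF-beta, over 1750 sites, and at 55.2% and 64.7% by the mean of site levels. From 28000001 to 28200000 the level was 59.8% and 73.4%, and from 28300001 to 28500000 it was 35.6% and 51.5%. The largest gain of a single window, 28400001 to 28500000, was from 36.7% (35.9 to 37.5) to 54.2% (53.3 to 55.1). The largest losses with the same sign by both measures were at 24300001 to 24400000, with -9.02 points by summed calls but -0.308 by the mean of site levels, 31900001 to 32000000, with -8.26 and -11.9, and 21900001 to 22000000, with -8.07 and -7.26.

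Windows of low level were lower by the median in the TGF-beta library on chromosomes 6 and 7, but not 3, and windows of higher level were higher in all 3 segments. Windows were classed by the mean of site levels on the first cytosine of each CpG, averaged over the libraries, and the difference was read from the second, so that the class was not set by the calls that gave the difference. Windows under 50% differed by a median of 0.238 points on chromosome 3 (63 windows), -1.87 on chromosome 6 (104) and -1.20 on chromosome 7 (49), against -0.750 over the 7132 such windows outside the segments. On chromosome 6, 22 of the 104 were above 0. In the rest of that chromosome 48 of the 177 such windows were, with a median difference of -1.04 points. Outside the segments 2478 of the 7132 were above 0. Windows of 50% to 75% differed by 1.50, 0.391 and 1.09 points, against 0.643 outside, and windows of 75% or more by 0.721, 0.642 and 0.932, against 0.695 outside.

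Intermediate sites were compared at equal calls, because a shallow site takes extreme levels more often. For 10 calls drawn from each site with 10 or more in each library, the expected share of sites with 3 to 7 methylated calls was 21.7% in the control against 20.4% with TGF-beta on chromosome 3, 24.4% and 22.7% on chromosome 6, and 21.3% and 19.2% on chromosome 7. Over chromosomes 1 to 38 it was 22.0% and 21.1%. The chance that 2 calls of the same site differ, which is 0 at sites that are fully methylated or fully unmethylated, does not depend on depth. It was 20.9% and 19.8% on chromosome 3, 22.3% and 20.7% on chromosome 6, and 20.4% and 18.5% on chromosome 7. The TGF-beta library was thus lower by 1.09, 1.62 and 1.91 points.

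Over the 38 autosomes outside the segments the same difference was between -2.55 and -0.521 points, with a median of -0.987. A larger difference than in the segment was found on 13 of them for chromosome 3, 2 for chromosome 6 and 1 for chromosome 7. In the rest of chromosomes 3, 6 and 7 the 2 libraries had 21.4% and 20.5%, 19.2% and 17.7%, and 19.9% and 18.6%. The difference there was -0.913, -1.47 and -1.24 points. The segments were thus at the larger end of the range on chromosomes 6 and 7, and that of chromosome 6 was close to the rest of its chromosome. The largest difference, -2.55 points, was on chromosome 25, where 46 of 52 bins of 1 Mb also had a low depth ratio.

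CpG-dense windows of 1000 bp, with at least 40 listed sites and at least 5 sites of 5 calls, stood in for CpG islands. There were 441 in the segment of chromosome 3, 654 in that of chromosome 6 and 264 in that of chromosome 7. Those under 10% in both libraries, the level typical of islands at active or poised promoters, made up 8.39%, 9.94% and 27.7%, against 11.9% over chromosomes 1 to 38. Those at 75% or more in both made up 67.8%, 58.3% and 28.4%, against 49.0%. The segment of chromosome 7 therefore held few dense windows of which a large share was unmethylated, whereas those of chromosomes 3 and 6 were mostly methylated.

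Of these dense windows, 1, 4 and 1 were higher in the TGF-beta library by 20 points or more by both measures of level, where 0.203% of all dense windows were, and 0 were lower, where 0.0247% were. On chromosome 6 at 60906001 to 60907000 the level was 12.4% (9.57 to 15.6, 485 calls) in the control against 53.1% (49.8 to 56.4, 932 calls) with TGF-beta. By the mean of site levels that window rose less, from 10.2% to 39.1%. The others on that chromosome were at 54497001, with 6.07% and 26.7%, at 55783001, with 20.5% and 41.3%, and at 62444001, with 48.7% and 72.9%. On chromosome 3 the window at 9707001 to 9708000 was at 18.6% (16.4 to 21.0) and 44.2% (41.9 to 46.5) over 80 sites, and on chromosome 7 the one at 32048001 to 32049000 at 27.9% (26.0 to 29.9) and 53.5% (51.7 to 55.4) over 102 sites.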

How the data were processed

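Both libraries were used, 1 per group. The deposited values are counts: per the files' layout, each line gives a count of methylated and of unmethylated calls for a CpG cytosine, and the authors' files have no header. Bismark, Bowtie 0.12.8 and canFam3 are named in the submitters' processing notes, and SOAPaligner2 in the labels' protocol; duplicate removal is not given in the sources used here, and kept duplicates would make intervals too narrow. Column 3 was taken as methylated because mitochondrial DNA holds almost none. In each file 1 line without a chromosome was left out. Adjacent cytosines were joined into 23477970 autosomal CpG sites, 91.1% with both cytosines listed.

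Windows of 100 kb needed 50 sites and 50% of their length. Relative depth used 20 classes of CpG density with equal numbers of windows. Levels used sites with 5 calls in both libraries. Named windows are the lowest and highest in depth, those beside edges, and the 3 largest gains and losses with one sign by both measures. Dense windows, stretches and runs were picked after their values were seen. The segments and lists were chosen with earlier results of these data known. Gene names were planned and are not analysed here. Median depth was 21 calls per site in the control against 35 with TGF-beta. Python 3.11.15, numpy 2.4.6, scipy 1.17.1, pandas 2.3.3, pyarrow 21.0.0 and matplotlib 3.10.9 were used, and the steps were tested on simulated data. Alternatives changed density classes, window size, the unit of depth, the reference windows, call minimums and thresholds.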

Additional observations from a re-analysis of the deposited data

How the results depend on the processing

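The median relative depths of chromosomes 3, 6 and 7 kept their sign under the 10, 8 and 9 alternatives run for each, 2 of them (a chromosome 3 segment up to 15 Mb, and bounds moved out over the adjoining low bins) added after the data were examined. With windows of 500 kb the TGF-beta medians were -0.35 on chromosome 3 and -0.81 on chromosome 6, and per listed cytosine -0.72 on chromosome 6 and -0.62 on chromosome 7. Up to 15 Mb the chromosome 3 medians were 0.17 in the control against -0.33 with TGF-beta, and with bounds moved out 0.27 and -0.23. At a threshold of 0.25 low control windows numbered 2, 128 and 82 on chromosomes 3, 6 and 7; at 0.5 they numbered 18 on chromosome 6 and 8 on chromosome 7, and low TGF-beta windows on chromosome 3 numbered 29. The median level difference by the mean of site levels was 0.593 on chromosome 3 and -0.369 on chromosome 6, where the sign turned; it also turned on chromosome 6 with at least 10 calls per site (-0.19) and on chromosome 7 with windows of 500 kb (-0.20); with windows of 500 kb the control median of chromosome 6 was 61.0%. Windows past 5 points numbered 25 higher and 14 lower on chromosome 3, 25 and 32 on chromosome 6, and 23 and 19 on chromosome 7; past 15 points they numbered 2 and 0, 1 and 0, and 2 and 1. By the mean of site levels they numbered 4 and 0, 3 and 5, and 4 and 2. With at least 10 calls per site 1 window was lower on chromosome 7, and up to 15 Mb 1 window was higher on chromosome 3. With 5 calls drawn, intermediate sites made up 17.1% and 16.2% on chromosome 3, 18.8% and 17.4% on chromosome 6, and 16.5% and 14.9% on chromosome 7 (control, then TGF-beta), the class being defined on 5 calls instead of 10. No paired analysis was possible because each group has 1 library, and no library could be left out.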
